A study of Mus musculus with 16 samples.

Results

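The genes described here are 9 of the 23179 genes in an RNA-Seq table of mouse mammary adipose tissue. They were taken by name as the genes through which an adipocyte takes up and activates fatty acids: Lpl, Gpihbp1, Angptl4, Vldlr, Cd36, Slc27a1, Acsl1, Fabp4 and Fabp5. All 9 were in the table, and all 9 passed the filter on low values that left 21218 genes to be tested. The tissue was the mammary fat pad opposite the tumor, sampled as the 9th pad after E0771 mammary cancer cells had been placed in the 4th pad at week 22. There were 16 libraries, 4 in each of 4 groups, all from wild-type female C57BL/6N mice that carried such a tumor. The sample labels also list E0771 as the cell line and a mammary cancer cell type, although they name the tissue as the normal pad of the other side.

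CON-LFD mice were kept on the low-fat diet D12450J throughout and had a sham operation. DIO-HFD mice had diet-induced obesity, stayed on the 60% high-fat diet D12492 and had a sham operation. DIO-LFD mice had been made obese in the same way and, with a sham operation, were moved to the low-fat diet with free access to food. DIO-VSG mice had been made obese and were operated on by vertical sleeve gastrectomy (VSG), in which most of the stomach is cut away along its greater curve, and were then given the low-fat diet. Surgery was therefore never given without a change of diet, and the parts of surgery and of diet cannot be told apart where DIO-VSG is set against DIO-HFD. DIO-HFD mice alone were eating the high-fat diet, so obesity and the current diet cannot be told apart in any comparison with that group.

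In adipose tissue, lipoprotein lipase (Lpl) is made by adipocytes and carried to the capillary wall by the endothelial protein Gpihbp1, where it splits the triglyceride of circulating lipoproteins. Angptl4 is a secreted inhibitor of lipoprotein lipase, and Vldlr is a receptor that binds triglyceride-rich lipoproteins. The released fatty acids cross the membrane with the help of Cd36 and Slc27a1 (also named FATP1), are bound in the cytosol by Fabp4 and Fabp5, and are joined to coenzyme A by Acsl1, the main long-chain acyl-CoA synthetase of adipocytes.

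Acsl1 was the member with the largest difference between groups. It was lowest in DIO-HFD, 2.77-fold below CON-LFD, 2.25-fold below DIO-LFD and 2.16-fold below DIO-VSG. These differences had an unadjusted P value below 0.05, but no difference of Acsl1 or of the other 8 genes had an adjusted P value below 0.05 in any of the 6 comparisons when all libraries were weighted equally. Angptl4 was 1.56-fold lower in DIO-VSG than in DIO-HFD and 1.61-fold lower than in DIO-LFD at an unadjusted P value below 0.05. For Lpl, Gpihbp1, Vldlr, Cd36, Slc27a1, Fabp4 and Fabp5 no difference reached that level in the fit of all libraries.

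Promoter sequences of RefSeq (GRCm38.p6, from 250 bases before to 50 bases after a start site) were at hand for 4 of the 9 genes, with 8 start sites among them: 1 for Cd36, 2 for Acsl1, 3 for Slc27a1 and 2 for Vldlr. The Acsl1 windows are printed because Acsl1 carries the main difference, and the Cd36 window because Cd36, the membrane fatty acid translocase, reached no unadjusted P value below 0.05. Capitals mark matches on either strand to AGGTCA (the core element of many nuclear receptors), TCACNCCAC (a core of the sterol regulatory element) and CCAAT.

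The first Acsl1 start, the 5′ end of the annotated gene (chr8:46470787-46471086, plus strand), had a GC content of 74% and 30 CpG dinucleotides and held none of these letters.
Acsl1 first start: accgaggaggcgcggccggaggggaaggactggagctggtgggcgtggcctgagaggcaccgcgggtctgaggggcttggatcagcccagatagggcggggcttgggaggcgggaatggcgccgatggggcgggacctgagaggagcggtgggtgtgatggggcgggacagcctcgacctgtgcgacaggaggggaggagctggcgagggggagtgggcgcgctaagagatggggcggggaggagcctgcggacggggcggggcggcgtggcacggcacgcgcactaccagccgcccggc
The second Acsl1 start (chr8:46490716-46491015, plus strand) lay 19929 bases downstream within the gene, at the first base of an annotated transcript, with a GC content of 50% and 4 CpG dinucleotides.
Acsl1 second start: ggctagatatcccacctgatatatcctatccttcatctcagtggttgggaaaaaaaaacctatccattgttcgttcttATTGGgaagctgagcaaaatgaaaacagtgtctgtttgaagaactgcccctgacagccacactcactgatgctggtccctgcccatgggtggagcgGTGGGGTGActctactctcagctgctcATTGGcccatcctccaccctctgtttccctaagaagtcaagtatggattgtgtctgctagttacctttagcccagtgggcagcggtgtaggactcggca
The Cd36 start (chr5:17835847-17836146, minus strand) lay inside the annotated gene, 52905 bases from its 5′ end and outside the annotated exons, with a GC content of 43%.
Cd36 start: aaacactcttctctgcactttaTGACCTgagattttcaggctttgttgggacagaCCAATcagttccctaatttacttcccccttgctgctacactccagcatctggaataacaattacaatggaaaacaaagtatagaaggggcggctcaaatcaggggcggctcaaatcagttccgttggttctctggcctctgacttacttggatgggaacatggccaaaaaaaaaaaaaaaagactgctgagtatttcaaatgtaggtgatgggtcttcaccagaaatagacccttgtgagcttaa

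In the second Acsl1 window TCACNCCAC was matched on the opposite strand from 76 to 68 bases before the start, and CCAAT was matched at 172 and at 49 bases before it. TCACNCCAC occurred in 1.24% of the 32851 promoters of that length, and among the 8 windows of these genes only in this one. CCAAT occurred in 37.4% of all promoters and in 5 of the 8 windows, of Cd36, Acsl1, Slc27a1 and Vldlr. AGGTCA occurred in 16.3% of all promoters and in 1 of the 8, that of Cd36, 228 to 223 bases before the start. A direct repeat of AGGTCA with 1 base between the copies, the element of PPAR and RXR, which holds AGGTCA itself, occurred in 0.0396% of promoters and TATAAA in 13.6%, and neither was found in the 8 windows. These matches describe letters in a window and were not tested as binding sites. The counts are per gene and do not show from which Acsl1 start the RNA came.

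Each library held 46907377 to 57610899 reads, and the 9 genes took 0.865% to 2.64% of them, so that counting error was small beside the differences between mice. The values given below are normalized counts, reads divided by a size factor of the library. CON-LFD replicate 3 and DIO-HFD replicate 1 stood apart: each was the lowest of its group for all 9 genes, while over all tested genes they were the lowest of their group for 33.3% and 35.5%. A score of 14 adipocyte markers, none of them among the 9 genes, was also lowest in these libraries within their groups, at -0.27 and -1.02 on the log2 scale around the mean of all libraries. Scores of T cell and B cell markers were highest in them within their groups. They were 1.62 and 1.94 in CON-LFD replicate 3, and 2.18 and 2.36 in DIO-HFD replicate 1. DIO-LFD replicate 1 was the highest of its group for 6 of the 9 genes. In whole tissue, fewer cells of a type and less RNA per cell cannot be told apart. Adipocyte identity was checked with the 14 adipocyte markers: Adipoq and Plin1 among them were detected in every library, and of the 14 markers none was at 3 reads or fewer through a group.

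**Figure D1:**
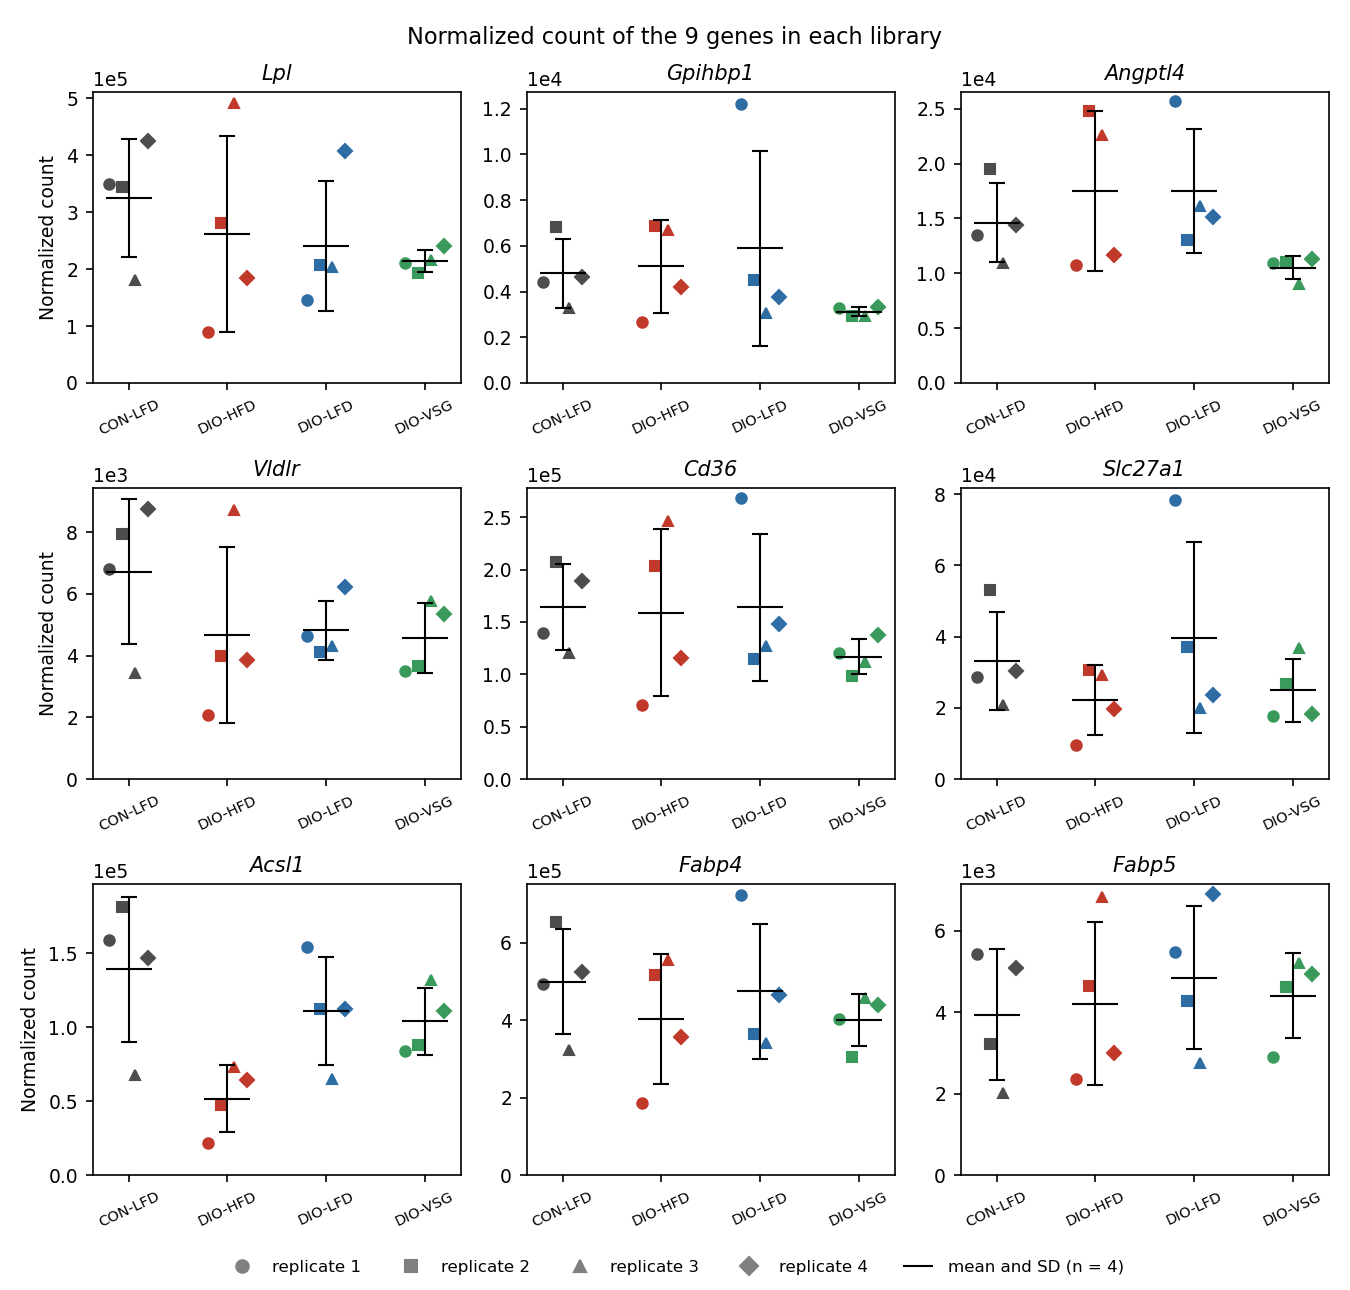
Normalized counts of the 9 genes in the 16 libraries. Each symbol is 1 library, with the shape giving its replicate number, and bars give the mean and SD of the 4 libraries of a group. Acsl1 lay between 22000 and 72800 in DIO-HFD and between 83700 and 132000 in DIO-VSG, and DIO-HFD replicate 1 was the lowest of its group in every panel.

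Per kilobase of merged exons in GENCODE M21, Fabp4 was the most abundant of the 9 genes, with a mean of 99000 normalized counts per kilobase over the 16 libraries. Cd36 followed at 42100 and Lpl at 24900. Acsl1 was at 9660, Slc27a1 at 5150, Angptl4 at 4240, Gpihbp1 at 1850, Fabp5 at 1220 and Vldlr at 516 per kilobase. The cytosolic carrier, the membrane translocase and the lipase thus had the highest levels, and the lipoprotein receptor the lowest. The ranges over libraries overlapped between neighbours in this order, for example 19700 to 74500 for Cd36 and 8610 to 46900 for Lpl.

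Lpl (GRCm38 chromosome 8, 68880491 to 68907448, plus strand, protein coding) had normalized counts of 349000, 344000, 181000 and 425000 in CON-LFD replicates 1 to 4. In DIO-HFD they were 90200, 281000, 491000 and 184000, so that both the lowest and the highest of the 16 values were in this group. They were 146000, 207000, 204000 and 407000 in DIO-LFD, and 210000, 194000, 216000 and 240000 in DIO-VSG. The groups overlapped in all comparisons. The 4 DIO-VSG libraries differed by 1.24-fold, while those of DIO-HFD differed by 5.45-fold. Between DIO-HFD and CON-LFD the log2 fold change was -0.50 (95% interval -1.46 to 0.46), between DIO-LFD and DIO-HFD 0.03 (-0.93 to 0.99), and between DIO-VSG and DIO-HFD -0.03 (-0.99 to 0.93). The first was -0.08 without DIO-HFD replicate 1, -0.76 without CON-LFD replicate 3 and -0.89 without DIO-HFD replicate 3 (limma unadjusted P = 0.0486).

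Gpihbp1 (chromosome 15, 75596628 to 75599481, plus strand, protein coding), which anchors the lipase on the capillary endothelium, was at 4410, 6840, 3270 and 4640 in CON-LFD. It was at 2660, 6860, 6690 and 4200 in DIO-HFD and at 12200, 4500, 3050 and 3770 in DIO-LFD. In DIO-VSG the values were 3260, 2920, 2950 and 3310, the narrowest range of any group and gene, with an SD of 0.09 on the log2 scale. The single high value of DIO-LFD replicate 1 gave that group its mean of 5890 ± 4260 (SD, n = 4). DIO-VSG overlapped each of the other groups, in every case through the lowest library of that group, and lay below the remaining ones. The log2 fold change was -0.61 (95% interval -1.45 to 0.22) from DIO-HFD and -0.69 (-1.52 to 0.14) from DIO-LFD. Without DIO-HFD replicate 1 the difference from DIO-HFD was -0.89, with a limma unadjusted P of 0.036 and an adjusted P of 0.156. It was -0.44 without DIO-HFD replicate 2 and -0.45 without replicate 3. The difference from DIO-LFD was -0.26 without DIO-LFD replicate 1 and -0.93 without DIO-LFD replicate 3 (limma unadjusted P = 0.0364).

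Lpl and Gpihbp1 did not follow each other closely. The ratio of their counts ran from 11.9 to 108 in the DIO-LFD libraries and from 64.3 to 73.3 in the DIO-VSG libraries. It was 50.4 to 91.6 in CON-LFD and 33.9 to 73.5 in DIO-HFD. DIO-LFD replicate 1 had the highest Gpihbp1 of all libraries and the lowest Lpl of its group.

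Angptl4 (chromosome 17, 33773750 to 33781830, minus strand, protein coding), the inhibitor of the lipase, was at 13500, 19500, 10900 and 14400 in CON-LFD. The values were 10800, 24800, 22600 and 11700 in DIO-HFD, 25700, 13000, 16100 and 15100 in DIO-LFD, and 10900, 11000, 8980 and 11300 in DIO-VSG. All 4 DIO-VSG libraries were below all 4 DIO-LFD libraries, whereas they overlapped with DIO-HFD through its replicate 1 and with CON-LFD through its replicate 3. Against DIO-LFD the log2 fold change was -0.69 (SE 0.28, limma unadjusted P = 0.0276, adjusted P = 0.509), with an exact permutation P of 0.0286, the smallest that 4 against 4 libraries can give. Against DIO-HFD it was -0.64 (SE 0.28, limma unadjusted P = 0.039, adjusted P = 0.362), with an exact permutation P of 0.114. The first difference missed an unadjusted P of 0.05 without DIO-LFD replicate 1 (-0.49) or DIO-VSG replicate 3 (-0.61). The second missed it without DIO-HFD replicate 2 (-0.44) or 3 (-0.48) or any 1 of the DIO-VSG libraries, with unadjusted P values of 0.0508 to 0.14. With the adipocyte score as a term the first was -0.33 (limma unadjusted P = 0.151). The second was -0.23 with library weights and -0.25 with the lymphocyte score (limma unadjusted P = 0.164 and 0.22), and stayed at -0.64 with the replicate block and in the fit of the 8 libraries alone (0.0574 and 0.0554). The ratio of Angptl4 to Lpl counts was 0.0415 to 0.0566 in DIO-VSG, within the 0.034 to 0.0604 of CON-LFD. It spread widely in DIO-HFD (0.046 to 0.119) and DIO-LFD (0.0372 to 0.176).

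Vldlr (chromosome 19, 27216484 to 27254231, plus strand, protein coding), the receptor for triglyceride-rich lipoproteins, was at 6810, 7940, 3420 and 8730 in CON-LFD. It was at 2080, 3990, 8720 and 3840 in DIO-HFD, at 4620, 4110, 4320 and 6230 in DIO-LFD, and at 3510, 3660, 5750 and 5330 in DIO-VSG. In CON-LFD 3 of the 4 libraries were above all DIO-LFD and all DIO-VSG libraries, and replicate 3 was below all of them. DIO-HFD minus CON-LFD was -0.63 (95% interval -1.43 to 0.17). Without DIO-HFD replicate 1 this was -0.31 (limma unadjusted P = 0.385), and without CON-LFD replicate 3 it was -0.93 (limma adjusted P = 0.179). Without CON-LFD replicate 3 and DIO-HFD replicate 1 together it was -0.61 (limma adjusted P = 0.366). The unadjusted P values of the last 2 limma fits were 0.0217 and 0.0637, and without DIO-HFD replicate 3 the unadjusted P was 0.00852 and the adjusted P 0.282.

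Cd36 (chromosome 5, 17781690 to 17888801, minus strand, protein coding), the membrane translocase of fatty acids, was at 139000, 207000, 120000 and 189000 in CON-LFD. In DIO-HFD it was at 70800, 203000, 246000 and 116000, in DIO-LFD at 268000, 115000, 127000 and 148000, and in DIO-VSG at 120000, 98000, 112000 and 138000. The means were 164000 ± 41100 (SD, n = 4) in CON-LFD, 159000 ± 79800 in DIO-HFD, 164000 ± 70100 in DIO-LFD and 117000 ± 16800 in DIO-VSG. The groups overlapped in every comparison. The interval of DIO-HFD minus CON-LFD ran from -0.94 to 0.61, and that of DIO-VSG minus DIO-LFD from -1.19 to 0.36. The estimates were -0.16 and -0.41. The first was 0.17 without DIO-HFD replicate 1 and -0.43 without DIO-HFD replicate 3, and the second was -0.15 without DIO-LFD replicate 1.

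Slc27a1 (chromosome 8, 71568882 to 71587302, plus strand, protein coding), a fatty acid transport protein that also has acyl-CoA synthetase activity, was the most variable of the 9 genes together with Acsl1. Its highest library, DIO-LFD replicate 1, was 8.2-fold above its lowest, DIO-HFD replicate 1. The values were 28700, 53000, 20800 and 30300 in CON-LFD, 9560, 30700, 29200 and 19700 in DIO-HFD, 78300, 37200, 19900 and 23500 in DIO-LFD, and 17800, 26800, 36800 and 18200 in DIO-VSG. All groups overlapped. The log2 fold change was -0.63 (95% interval -1.61 to 0.36) for DIO-HFD minus CON-LFD and 0.75 (-0.23 to 1.73) for DIO-LFD minus DIO-HFD. The first was -0.27 without DIO-HFD replicate 1, and the second was 0.39 without that library and 0.35 without DIO-LFD replicate 1.

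Acsl1 (chromosome 8, 46471037 to 46536051, plus strand, protein coding), which turns the incoming fatty acid into its acyl-CoA, was at 159000, 181000, 67900 and 147000 in CON-LFD. In DIO-HFD it was at 22000, 47600, 72800 and 64400. The values were 154000, 112000, 65000 and 112000 in DIO-LFD and 83700, 87700, 132000 and 111000 in DIO-VSG. All 4 DIO-VSG libraries were above all 4 DIO-HFD libraries. The DIO-HFD range met that of CON-LFD only through CON-LFD replicate 3, and that of DIO-LFD only through DIO-LFD replicate 3.

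DIO-HFD minus CON-LFD was -1.47 for Acsl1 (SE 0.39, 95% interval -2.30 to -0.63, limma unadjusted P = 0.00207, adjusted P = 0.215, exact permutation P = 0.0571). DIO-LFD minus DIO-HFD was 1.17 (SE 0.39, 95% interval 0.33 to 2.01, limma unadjusted P = 0.00949, adjusted P = 0.463, exact permutation P = 0.0571). DIO-VSG minus DIO-HFD was 1.11 (SE 0.39, 95% interval 0.28 to 1.95, limma unadjusted P = 0.0126, adjusted P = 0.305, exact permutation P = 0.0286). All 3 had an unadjusted P value below 0.05 in each of the 26 alternative fits, with ranges of -1.78 to -1.04, 0.62 to 1.41 and 0.75 to 1.54. The adjusted P values over these fits were 0.012 to 0.567, 0.0889 to 0.77 and 0.0362 to 0.621. Without CON-LFD replicate 3 and DIO-HFD replicate 1 the 3 differences were -1.42, 0.80 and 0.75. With the adipocyte marker score as a term they were -1.04, 0.77 and 1.22. Neither low-fat group that had been obese reached an unadjusted P value of 0.05 against CON-LFD, with intervals of -1.13 to 0.54 for DIO-LFD and -1.19 to 0.48 for DIO-VSG, which do not show that they were alike. DIO-VSG minus DIO-LFD was -0.06 (-0.89 to 0.78). In the order CON-LFD, DIO-LFD, DIO-VSG and DIO-HFD, only the last neighbours reached an unadjusted P value below 0.05. The markers of other cell types are given here, without a test, for the 3 comparisons in which Acsl1 had an unadjusted P value below 0.05. The median log2 fold change of 9 brown adipocyte markers was -2.45 in DIO-HFD minus CON-LFD, 1.85 in DIO-LFD minus DIO-HFD and 1.93 in DIO-VSG minus DIO-HFD, with 0, 9 and 9 of the 9 higher. Their score ranged from -3.03 to -1.09 in DIO-HFD, from -0.77 to 3.45 in CON-LFD, from -0.11 to 1.22 in DIO-LFD and from -1.74 to 3.01 in DIO-VSG. The medians of 12 skeletal muscle markers were -2.33, 2.25 and 1.92 (0, 12 and 11 higher), and those of 11 mammary epithelium markers -0.78, 1.05 and 0.54 (1, 10 and 11 higher). Those of 12 macrophage markers had the opposite sign, at 0.50, -0.27 and -0.85 (11, 1 and 2 higher), as had those of 11 keratinocyte markers, at 1.32, -0.44 and -1.47 (8, 3 and 1 higher). T cell markers were at 0.62, 0.83 and 2.20 and B cell markers between 1.15 and 2.75, with all 12 of each list higher in all 3 comparisons. Erythroid markers were at 0.33, 0.63 and -0.23 (6, 6 and 1 of 6 higher). Capillary endothelium markers were at 0.33, -0.12 and -0.52 (11, 2 and 0 of 12 higher). The adipocyte markers themselves were at -0.44, 0.40 and 0.02 (2, 12 and 8 of 14 higher). The part of these markers in the Acsl1 differences was not tested. A gene of unknown type, Gm45244, overlaps an Acsl1 exon on the opposite strand and was not in the table.

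Fabp4 (chromosome 3, 10204088 to 10208576, minus strand, protein coding), the adipocyte fatty acid binding protein, was at 494000, 653000, 324000 and 524000 in CON-LFD and at 187000, 516000, 555000 and 356000 in DIO-HFD. It was at 724000, 365000, 342000 and 464000 in DIO-LFD and at 402000, 306000, 456000 and 439000 in DIO-VSG. The groups overlapped throughout. Its estimated differences from DIO-HFD were 0.28 (95% interval -0.49 to 1.06) in DIO-LFD and 0.09 (-0.68 to 0.86) in DIO-VSG, and DIO-HFD minus CON-LFD was -0.38 (-1.15 to 0.39). The last value was 0.31 under quantile normalization and -0.05 without DIO-HFD replicate 1. The first was -0.05 without that library.

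Fabp5 (chromosome 3, 10012548 to 10016607, plus strand, protein coding), the epidermal form that adipocytes and macrophages also make, was at 5430, 3210, 2010 and 5080 in CON-LFD and at 2350, 4640, 6840 and 3010 in DIO-HFD. It was at 5490, 4270, 2750 and 6900 in DIO-LFD and at 2890, 4610, 5220 and 4930 in DIO-VSG. The groups overlapped throughout, and CON-LFD had the lowest mean, 3940 ± 1610 (SD, n = 4). The intervals were -0.74 to 0.91 for DIO-HFD minus CON-LFD, -0.58 to 1.07 for DIO-LFD minus DIO-HFD and -0.67 to 0.98 for DIO-VSG minus DIO-HFD. Fabp4 counts were 66.3 to 203 times those of Fabp5 in the same library.

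**Figure D2:**
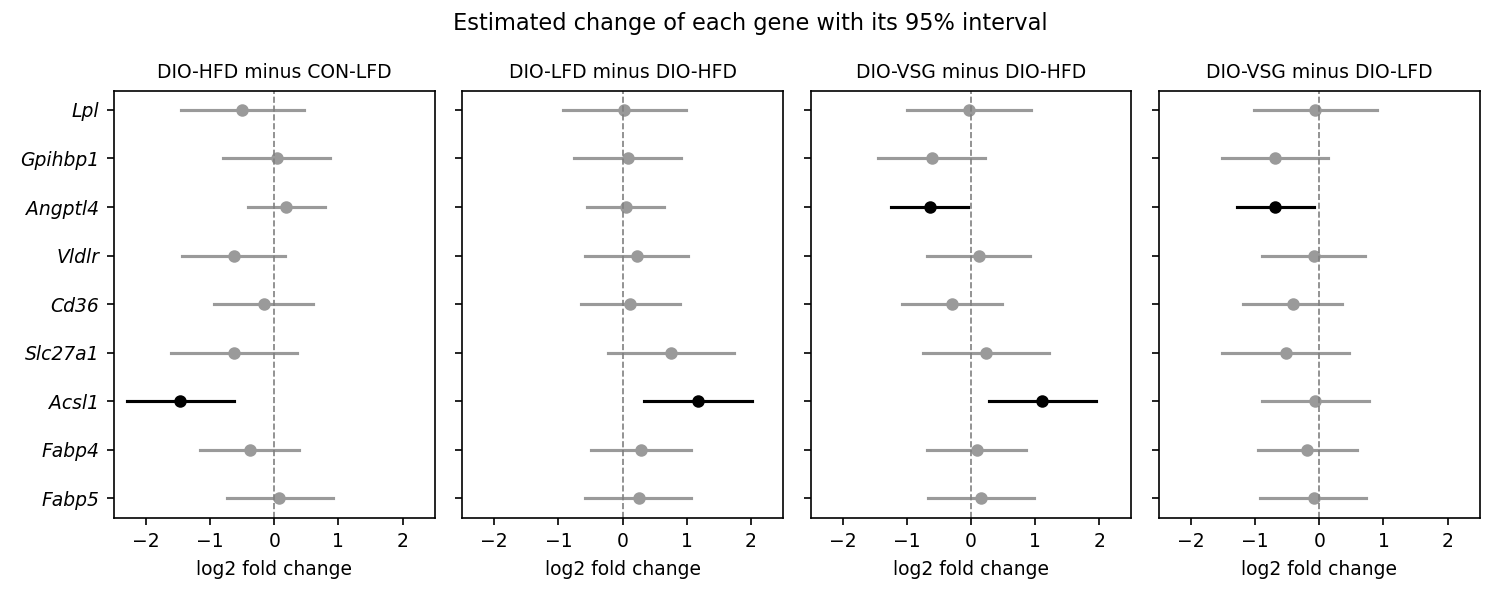
Log2 fold change of each gene in 4 comparisons, with its 95% interval from the limma fit of all 16 libraries. Black marks an unadjusted P value below 0.05: Acsl1 at -1.47, 1.17 and 1.11 in the comparisons with DIO-HFD, and Angptl4 at -0.64 and -0.69 in those of DIO-VSG.

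DIO-HFD minus CON-LFD set obese mice on the high-fat diet against mice kept on the low-fat diet. An adjusted P value below 0.05 was reached by 0 of the 9 members and by 0.0377% of all tested genes, and 1, Acsl1, had an unadjusted P value below 0.05, against 12.9% of all genes. None of the 9 had groups that did not overlap, against 4.76% of all genes. The median log2 fold change of the 9 was -0.38, and that of all tested genes was 0.02. With each library weighted by its fit, a setting under which DIO-HFD replicate 4 had a weight of 10.924 and every other DIO-HFD library one of 0.484 or less, Acsl1, Vldlr and Lpl had limma adjusted P values of 0.012, 0.0256 and 0.0422 in this comparison. Under these weights 7949 of all tested genes had an unadjusted P value below 0.05, beside 2735 with equal weights. How many of all genes then had an adjusted P value below 0.05 is not given here. With equal weights the 3 genes with estimates above 0 were Gpihbp1 (0.04), Angptl4 (0.19) and Fabp5 (0.08). The number above 0 was 0 with library weights and without DIO-HFD replicate 2, 1 without CON-LFD replicate 3 or DIO-HFD replicate 3, 4 without DIO-HFD replicate 1 or with the lymphocyte score, and 5 under quantile normalization or with the adipocyte score.

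The comparisons of DIO-LFD and DIO-VSG with DIO-HFD set weight loss by either route, together with the change of diet, against continued obesity. In DIO-LFD minus DIO-HFD, 0 of the 9 passed the adjusted threshold, as did 0% of all genes, and 1, Acsl1, had an unadjusted P value below 0.05, against 8.53%. None was free of overlap, against 4.51%. All 9 estimates were above 0, with a median of 0.22 against 0.01 for all genes, but without DIO-HFD replicate 1 only 3 were, without DIO-HFD replicate 4 there were 7, without DIO-LFD replicate 1 there were 6, without DIO-LFD replicate 4 there were 8, under quantile normalization 7, with library weights 8 and with the adipocyte score as a term 2.

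In DIO-VSG minus DIO-HFD, 0 of the 9 passed the adjusted threshold, as did 0% of all genes, and Acsl1 and Angptl4 had an unadjusted P value below 0.05, against 13.2% of all genes. Acsl1 alone was free of overlap, against 6.59%. The median was 0.09 for the 9 genes and 0.02 for all. Without CON-LFD replicate 3 and DIO-HFD replicate 1 there were 3 at an unadjusted P value below 0.05, Gpihbp1 at -0.89 being the third. The number of all tested genes at that level also rose, from 2794 with all libraries to 6563 without these.

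In DIO-VSG minus DIO-LFD, which asked whether the route of weight loss mattered, 0 passed the adjusted threshold, as did 0% of all genes, and Angptl4 alone had an unadjusted P value below 0.05, against 9.71% of all genes. Angptl4 alone was free of overlap, against 18.8%. The median was -0.19 for the 9 and -0.02 for all. All 9 estimates were below 0, but 2 were above 0 under quantile normalization, 2 with library weights, 6 with the adipocyte score as a term and 5 with the lymphocyte score. There were 2 above 0 without DIO-LFD replicate 1, 3 without DIO-LFD replicate 4, 3 without DIO-VSG replicate 1 and 1 without DIO-VSG replicate 2.

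Against CON-LFD, the DIO-LFD libraries gave 0 of the 9 at an adjusted P value of 0.05 (0.00471% of all genes) and 0 at an unadjusted one (6.26%), with 0 free of overlap (3.53%). The DIO-VSG libraries gave 0 at an adjusted P value (0% of all genes), 0 at an unadjusted one (17.8%) and 0 free of overlap (7.02%). Without CON-LFD replicate 3 and DIO-HFD replicate 1 these unadjusted counts were 2 and 3: Vldlr (-0.71) and Acsl1 (-0.61) in DIO-LFD minus CON-LFD, and Lpl (-0.79), Vldlr (-0.81) and Acsl1 (-0.67) in DIO-VSG minus CON-LFD. Their adjusted P values were 0.0609 or more. The unadjusted counts over all tested genes also rose without these libraries, from 1328 to 3543 in DIO-LFD minus CON-LFD. In DIO-VSG minus CON-LFD they rose from 3771 to 7441. A single gene is already a larger share of 9 than several of these backgrounds, so the counts were not read as a difference from all genes.

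The spread between mice was itself uneven over the groups. DIO-VSG had the smallest SD of the log2 values for 8 of the 9 genes, all except Vldlr, and for 46.1% of all tested genes. The median SD of the 9 genes was 0.26 in DIO-VSG, 0.77 in DIO-HFD, 0.54 in CON-LFD and 0.55 in DIO-LFD, and over all tested genes it was 0.21, 0.38, 0.35 and 0.26. The 9 genes deviated together: the deviations from the group means correlated positively in all 36 pairs of the 9 genes, with Pearson's r from 0.28 for Lpl and Gpihbp1 to 0.95 for Cd36 and Fabp4 and a median of 0.71, given as a description over 16 libraries.

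**Figure D3:**
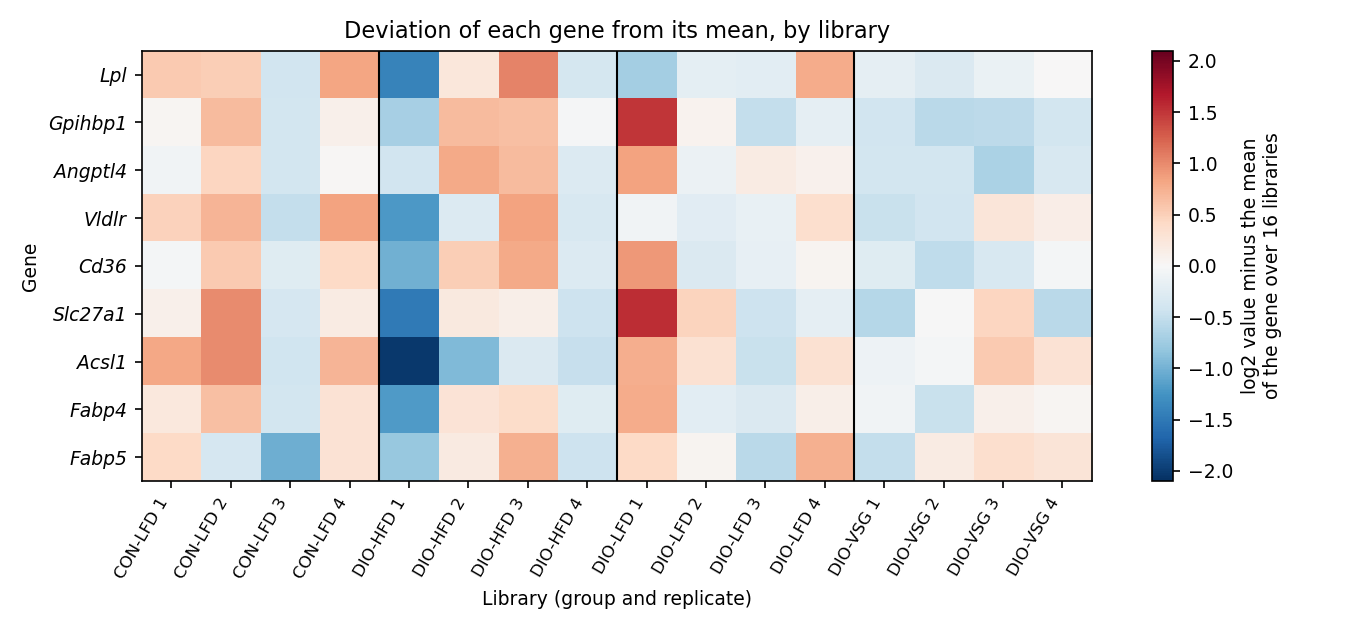
Log2 value of each gene in each library, centered on the 16-library mean of the gene, in color from blue (below) to red (above). DIO-HFD replicate 1 is below the mean in all 9 rows, DIO-LFD replicate 1 is above it in Gpihbp1, Angptl4, Cd36, Slc27a1, Acsl1, Fabp4 and Fabp5, and Acsl1 is below it in all 4 DIO-HFD libraries.

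This common spread moved with the markers of the tissue. Over the 16 libraries, Pearson's r with the adipocyte score was 0.88 for Fabp4 and 0.87 for Cd36 (Spearman's rho 0.88 and 0.91), with permutation P values of 3e-05 and 1e-05 for r and of 7e-05 and 1e-05 for rho, 1e-05 being the smallest that 100000 permutations can give. Adjusted over the 72 coefficients of this kind computed, these P values were 0.00022, 0.00012, 0.00031 and 0.00012. The libraries were permuted without regard to group, so these P values do not separate differences between groups from those between mice. Without the 2 libraries farthest from the median of the score, DIO-HFD replicate 1 and DIO-VSG replicate 2, r was 0.74 for Fabp4 and 0.79 for Cd36. For Acsl1, r was 0.66 and rho 0.50 (permutation P = 0.0073 and 0.05, adjusted 0.014 and 0.066), and r was 0.38 without those libraries, so that the relation of Acsl1 rested in part on them. Within groups, as deviations from the group means, r was 0.90 for Fabp4, 0.88 for Cd36 and 0.76 for Acsl1. The score ranged from -1.02 to 0.32 in DIO-HFD, from -0.27 to 0.56 in CON-LFD, from 0.06 to 0.43 in DIO-LFD and from -0.60 to 0.06 in DIO-VSG. What part the amount of adipocyte RNA has in these values was not tested.

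The score of 12 capillary endothelium markers, which include none of the 9 genes, was -0.33 to -0.29 in DIO-VSG, -0.20 to 0.63 in DIO-HFD, -0.21 to 0.77 in DIO-LFD and -0.28 to 0.36 in CON-LFD. Its median log2 fold change was -0.52 in DIO-VSG minus DIO-HFD (7 of 12 lower and 0 higher at an unadjusted P value below 0.05) and -0.48 in DIO-VSG minus DIO-LFD (2 lower and 0 higher), and in both comparisons 0 of the 12 estimates were above 0. These are the comparisons in which Angptl4 had an unadjusted P value below 0.05, and Gpihbp1 is itself a capillary gene. As a description over the 16 libraries, Pearson's r with this score was 0.93 for Angptl4 and 0.89 for Gpihbp1 (Spearman's rho 0.86 and 0.71). Without the 2 libraries farthest from its median, DIO-HFD replicate 3 and DIO-LFD replicate 1, r was 0.89 and 0.80. Within groups it was 0.92 for both genes. Over the 16 libraries r was 0.81 for Cd36, 0.62 for Fabp4, 0.57 for Slc27a1, 0.35 for Fabp5, 0.30 for Vldlr, 0.24 for Lpl and 0.06 for Acsl1. The part of these markers in the Angptl4 difference was not tested.

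**Figure D4:**
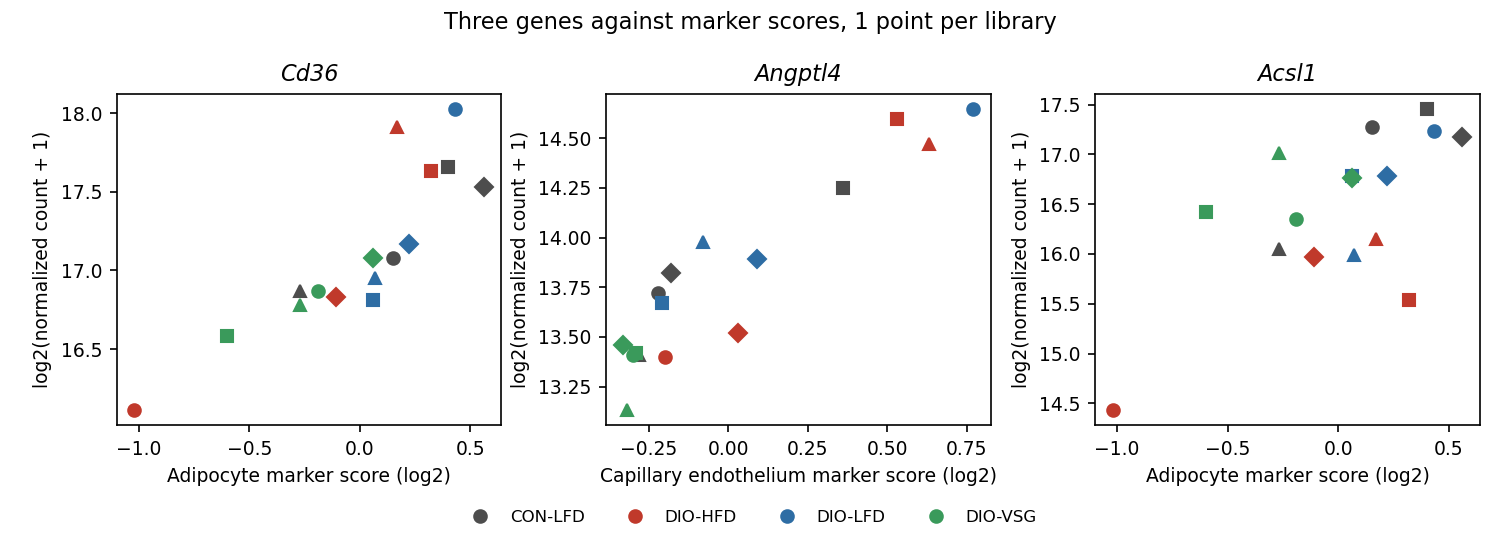
Log2 value of Cd36, Angptl4 and Acsl1 against the mean log2 deviation of adipocyte or capillary endothelium markers, 1 symbol per library, with color for the group and shape for the replicate as in the plot of normalized counts. Cd36 follows the adipocyte score (r = 0.87), the 4 DIO-VSG libraries lie at endothelium scores of -0.33 to -0.29, and the DIO-HFD values of Acsl1 lie low at their adipocyte scores.

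The other genes of the pathway were taken from 4 lists of 71 genes in all, of which 67 were tested. None passed an adjusted P value of 0.05 in any comparison. At an unadjusted P value below 0.05, DIO-HFD minus CON-LFD had 0 higher and 17 lower of the 67 (25.4%), beside 12.9% of all tested genes. DIO-LFD minus DIO-HFD had 12 higher and 1 lower (19.4%, beside 8.53%), and DIO-VSG minus DIO-HFD had 6 higher and 8 lower (20.9%, beside 13.2%). Both comparisons share the DIO-HFD libraries with the first. DIO-VSG minus DIO-LFD had 0 higher and 10 lower (14.9%, beside 9.71%). Against CON-LFD the share was below that of all genes, with 3 higher and 0 lower in DIO-LFD (4.48%, beside 6.26%) and 1 higher and 7 lower in DIO-VSG (11.9%, beside 17.8%).

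Among 15 tested acyl-CoA synthetases and thioesterases, the family of Acsl1 and the enzymes that undo its reaction, 7 were lower in DIO-HFD than in CON-LFD at that level, beside 12.9% of all tested genes in either direction, with a list median of -0.52. The median was 0.36 in DIO-LFD minus DIO-HFD and 0.37 in DIO-VSG minus DIO-HFD, with 2 higher and 0 lower in each, beside 8.53% and 13.2% of all genes. The brown adipocyte and skeletal muscle markers had medians of the same sign in these comparisons (-2.45, 1.85 and 1.93, and -2.33, 2.25 and 1.92), and their part in the values of this list was not tested. Acsf2, a medium-chain acyl-CoA synthetase, was 5160 ± 817 (SD, n = 4) in CON-LFD, 3590 ± 466 in DIO-HFD, 4730 ± 812 in DIO-LFD and 5130 ± 774 in DIO-VSG. Its log2 fold changes were -0.52 for DIO-HFD minus CON-LFD, and 0.39 and 0.51 for DIO-LFD and DIO-VSG minus DIO-HFD, with limma unadjusted P values of 0.00469, 0.0252 and 0.00515 and adjusted P values of 0.237, 0.518 and 0.273. Acsf3, a mitochondrial synthetase of malonyl-CoA, was at -0.60 in DIO-HFD minus CON-LFD (limma adjusted P = 0.261) and at 0.46 in DIO-LFD minus DIO-HFD (0.565). Acsbg1 was at 0.72 in DIO-VSG minus DIO-HFD (0.377).

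Of 19 tested genes of the lipoprotein lipase system, 3 were lower and 0 higher in DIO-HFD than in CON-LFD at an unadjusted P value below 0.05, beside 12.9% of all genes. The 2 with the smallest P values were Lsr, a lipoprotein receptor (-0.71, limma adjusted P = 0.321), and Lmf1, which the lipase needs to fold (-0.30, 0.333). DIO-LFD minus DIO-HFD had 5 higher (8.53% of all genes), led by Apoc3, an apolipoprotein that inhibits the lipase, with 78.4 ± 83.2 (SD, n = 4) against 6.91 ± 3.88 normalized counts (log2 fold change 2.96, limma adjusted P = 0.295), and by Apoc1 (1.01, 0.502). Against 13.2% of all genes, DIO-VSG minus DIO-HFD had 1 higher, Sorl1, a sorting receptor of the lipase (1.04, 0.273), and 2 lower, among them Hspg2, the basement membrane proteoglycan perlecan, at 26200 ± 3090 against 69400 ± 41000 (-1.23, 0.257). DIO-VSG minus DIO-LFD had 5 lower (9.71% of all genes) and a median of -0.42, with 1 of the 19 estimates above 0. In that comparison the adipocyte markers had a median of -0.42 (0 of 14 higher) and the capillary endothelium markers one of -0.48 (0 of 12 higher), and in DIO-VSG minus DIO-HFD the endothelium markers were at -0.52, with 7 of 12 lower at an unadjusted P value below 0.05. In DIO-LFD minus DIO-HFD the adipocyte markers had a median of 0.40 (12 of 14 higher) and the mammary epithelium markers one of 1.05 (10 of 11 higher). The endothelium markers were at -0.12 in that comparison (2 of 12 higher). The part of these markers in the values of the lipase system was not tested.

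Of 15 tested genes of fatty acid transport and binding, 1 was lower in DIO-HFD than in CON-LFD at that level, beside 12.9% of all genes: the muscle and heart form Fabp3, with 21.4 ± 15.8 (SD, n = 4) against 1740 ± 3010 normalized counts (-4.62, limma adjusted P = 0.266). Skeletal muscle markers scored -2.03 to -1.15 in DIO-HFD and -1.68 to 4.02 in CON-LFD, and brown adipocyte markers -3.03 to -1.09 and -0.77 to 3.45, and their part in the Fabp3 value was not tested. Slc27a4, another fatty acid transport protein, was at 0.28 in DIO-LFD minus DIO-HFD (0.543). Mfsd2a, a lysophospholipid transporter, was at 1.83 in DIO-LFD minus DIO-HFD (0.577) and at 1.88 in DIO-VSG minus DIO-HFD (0.367). Its normalized counts were 463 ± 749 (SD, n = 4) in DIO-LFD, 224 ± 156 in DIO-VSG and 50.5 ± 12.2 in DIO-HFD.

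Of 18 tested regulators of fatty acid uptake, 6 were lower and 0 higher in DIO-HFD than in CON-LFD at an unadjusted P value below 0.05, beside 12.9% of all genes. Klf15, a transcription factor of adipose lipid metabolism, was 2900 ± 208 (SD, n = 4) in CON-LFD, 1550 ± 486 in DIO-HFD and 2500 ± 745 in DIO-LFD. Its log2 fold change was -0.96 for DIO-HFD minus CON-LFD (limma adjusted P = 0.186) and 0.70 for DIO-LFD minus DIO-HFD (0.463). Ppara, a fatty acid receptor, was at -2.05 in DIO-HFD minus CON-LFD (0.25), with 216 ± 104 against 1090 ± 1000. In the same comparison the brown adipocyte markers had a median of -2.45 (6 of 9 lower and 0 higher at an unadjusted P value below 0.05) and the skeletal muscle markers one of -2.33 (0 of 12 estimates above 0), and their part in these values was not tested. In DIO-VSG minus DIO-HFD 2 were higher and 6 lower, beside 13.2% of all genes, led by the capillary endothelial regulators Meox2 (-0.63, 0.275) and Notch1 (-0.39, 0.329). Of the 12 capillary endothelium markers 7 were lower and 0 higher in DIO-VSG minus DIO-HFD at an unadjusted P value below 0.05, with a median of -0.52, and their part in these values was not tested. Meox2 was also at -0.65 in DIO-LFD minus DIO-HFD (0.456).

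Among the 14541 other genes with a median of 100 normalized counts or more, the 3 most like each member were found by Pearson's r over the 16 libraries. They were Sowahc, Gpd1 and Plpp6 for Acsl1 (r = 0.96, 0.96 and 0.95, and 0.92, 0.95 and 0.93 for deviations from the group means). For Angptl4 they were Efna1, Mprip and Notch1 (0.96, 0.95 and 0.95), for Gpihbp1 P2ry2, Tmbim1 and Gm16439 (each 0.96), and for Lpl Mmd, Pfdn1 and Acyp2 (0.97, 0.96 and 0.96). Cd36 was followed most closely by Stx12, Ano10 and Chp1 (0.98, 0.98 and 0.97), Fabp4 by Mgst1, Pex19 and Scp2 (0.97, 0.96 and 0.96), and Vldlr by Kctd3, Vps4a and Pfdn1 (0.96, 0.96 and 0.94). Slc27a1 was closest to Grhpr, Isca1 and Katnal2 (0.94, 0.93 and 0.93) and Fabp5 to Gm14328, Map6 and Psmc2 (0.91, 0.90 and 0.85). These are the highest of many coefficients over 16 libraries that share the same differences in tissue makeup.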

How the data were processed

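RNA-Seq of total RNA was performed by the authors on 16 mammary adipose samples. Their methods name stranded libraries, STAR and salmon on GRCm38, whereas the submitters' processing notes name TopHat2 2.0.7, HTSeq 0.5.3p9, DESeq2 and mm10. The deposited values were variance-stabilized log2 values of the authors, although described as normalized counts. They were inverted to normalized counts, of which 100.0% were whole reads (tolerance 0.01) once divided by the smallest nonzero value of the library. Columns were matched to samples by animal number. Limma-trend (limma 3.58.1, R 4.3.3) was fitted to log2(normalized count + 1) of the 21218 genes that reached 10 normalized counts in 4 or more libraries, in 1 fit of 16 libraries with group as the only term, two-sided, with Benjamini-Hochberg adjustment over all tested genes. Fold changes understate those of low genes. The fit was tried on simulated counts with the same relative spread in all genes and groups. These lacked the unequal spread between groups seen here, so they do not show how the fit behaves under it. The labels do not say that replicates with the same number share anything, and only 9 of 24 such pairs deviated together (r above 0.1), so no block was used. P values measure the spread between these samples.

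The members and gene lists were chosen with earlier results of these data known. All 9 members were named in each comparison. From the 4 pathway lists the 2 genes with the smallest unadjusted P value below 0.05 were named for each comparison with DIO-HFD. The 10 marker lists gave scores, the mean over a list of log2 values centered on each gene. Positions and lengths are from GENCODE M21, and promoters from RefSeq (GRCm38.p6). Alternatives were another pseudocount, no filter, quantile normalization, the deposited values, the 8 libraries alone, a replicate block, library weights, marker scores as covariates, each library left out and, added after the data were seen, the 2 lowest libraries left out.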

Additional observations from a re-analysis of the deposited data

Results flagged for a closer look

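Angptl4 in DIO-VSG replicate 3, at 8980 normalized counts, lay far from the other 3 libraries of its group, which were between 10900 and 11300. On the log2 scale the gap was 0.835 of the range of the group, above Dixon's 95% critical value for 4 samples, and this was 1 of 36 sets of 4 values (9 genes in 4 groups), where chance gives about 1 in 20. On the scale of normalized counts it was 0.819 of the range, below that value, and Gpihbp1 in DIO-LFD, with its high replicate 1, was at 0.842.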

How the results depend on the processing

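Of the 54 member differences, the 5 with an unadjusted P value below 0.05 kept their sign in all 26 alternatives. Those of Acsl1 also kept that level in all of them, whereas Angptl4 kept it in 16 for DIO-VSG minus DIO-HFD and in 23 for DIO-VSG minus DIO-LFD. Of the other 49, which had no call, 11 changed sign under quantile normalization, 12 with library weights, 22 with the adipocyte score, 19 with the lymphocyte score, 14 without the 2 lowest libraries and 0 to 11 without any 1 library. The cause was not tested. None of the alternatives shifted the median of all genes by more than 0.040.

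The number of members at an unadjusted P value below 0.05 moved as follows, with the number of all tested genes at that level in parentheses. With library weights the number of members was 3 in DIO-HFD minus CON-LFD (7949), 2 in DIO-LFD minus DIO-HFD (5596) and 1 in DIO-VSG minus CON-LFD (7937). The number of members at an adjusted P value below 0.05 was then 3 in DIO-HFD minus CON-LFD (Acsl1, Lpl and Vldlr) and 1 in DIO-VSG minus DIO-HFD (Acsl1). How many of all genes passed that threshold under these weights is not given here. The weights, of 0.222 to 10.924, favored DIO-HFD replicate 4. With the adipocyte score the number of members at an unadjusted P value below 0.05 was 2 in DIO-HFD minus CON-LFD (3254) and 0 in DIO-VSG minus DIO-LFD (915). With the lymphocyte score it was 2 in DIO-LFD minus DIO-HFD (3354) and 1 in DIO-LFD minus CON-LFD (2683). With the 8 libraries alone it was 1 in DIO-VSG minus DIO-HFD (2550) and 2 in DIO-VSG minus CON-LFD (4394). With the replicate block, for which the numbers do not pair the samples, it was 1 in DIO-VSG minus DIO-HFD (2508), and the block changed no other count of members. Without the 2 lowest libraries it was 2 in DIO-LFD minus CON-LFD (3543), 3 in DIO-VSG minus CON-LFD (7441) and 3 in DIO-VSG minus DIO-HFD (6563). Without any 1 library it was 1 to 3 in DIO-HFD minus CON-LFD (1809 to 4178) and in DIO-VSG minus DIO-HFD (1585 to 5841). It was 0 to 2 in DIO-VSG minus DIO-LFD (1085 to 2816) and 0 to 1 in DIO-VSG minus CON-LFD (1899 to 6481). The lowest value of a member in a library was 2010 normalized counts, and with 4 libraries a group the 95% intervals were 1.20 to 1.97 log2 units wide.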

Other observations

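Lymphocyte markers varied between the fat pads by more than any of the 9 genes. The T cell score ranged from -3.57 to 2.18 in DIO-HFD and from -3.39 to 1.62 in CON-LFD, but only from 1.40 to 2.06 in DIO-VSG and from -0.30 to 0.80 in DIO-LFD. The B cell score was 1.75 to 1.97 in DIO-VSG, -0.15 to 0.94 in DIO-LFD, -4.21 to 2.36 in DIO-HFD and -5.71 to 1.94 in CON-LFD. Macrophage markers were 0.32 to 0.91 in DIO-HFD, -1.42 to 0.98 in CON-LFD, -0.46 to 0.36 in DIO-LFD and -0.96 to 0.64 in DIO-VSG. Skeletal muscle markers reached 6.09 in DIO-LFD replicate 4, 4.02 in CON-LFD replicate 4 and 3.48 in DIO-VSG replicate 2, keratinocyte markers 3.32 in DIO-HFD replicate 4 and erythroid markers 3.78 in DIO-LFD replicate 1. Mammary epithelium markers ranged from -1.05 to 0.96 over all libraries. These are log2 scores around the mean of the 16 libraries, given as values without a test.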
